A study of Aspergillus nidulans with 24 samples.

Results

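The penicillin synthesis genes of the filamentous fungus Aspergillus nidulans are acvA (AN2621), ipnA (AN2622) and aatA (AN2623). They were taken as the lines of these 3 identifiers in a table of 10631 genes, so the members are 3 of 10631. The rule names the genes and uses no measured value, but it was set with earlier results of these data known. In the gene order of the RefSeq assembly ASM1142v1 the 3 genes lie side by side, with ipnA between aatA and acvA. RNA was sequenced from mycelium of 4 strains at 2 h and at 8 h, with 3 libraries from biological replicates in each of the 8 groups, 24 libraries in all.

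The parental strain is A773, with the genotype pyrG89;wA3;pyroA4, and the labels also call it wild type. Each recombinant strain made 1 foreign enzyme, an alpha-arabinofuranosidase in AbfA, a beta-glucosidase in BglC and a mannanase from a heat-loving source (thermophilic mannanase in the labels) in 1542. Mycelium of all 4 strains was grown on glucose and then held in minimal medium with 2% maltose, the sugar used to activate the promoter of the introduced genes. The parental libraries received the same maltose medium, so no group without maltose was compared. The labels do not name the promoter, do not say how many transformants stand for each strain, and do not say whether the recombinant strains keep the markers of A773.

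Penicillin is made from L-alpha-aminoadipate, L-cysteine and L-valine. ACV synthetase, the very large peptide synthetase encoded by acvA, joins them into a linear tripeptide. Isopenicillin N synthase, an iron-dependent oxidase encoded by ipnA, closes the beta-lactam ring, and the acyltransferase encoded by aatA exchanges the side chain in the peroxisome. The genes are known to respond to carbon source, ambient pH and nitrogen, and to regulators of development.

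The values are FPKM, which correct fragment counts for the length of the gene and the size of the library. Whole reads could be recovered from the steps of these values, and library totals ran from 7140121 to 32309717 reads. A change is given as log2 ± SE from limma on log2(FPKM + 1), in a single fit of the 8 group means, and a call needs an adjusted p (Benjamini-Hochberg over the 9201 genes tested) under 0.05. Adding 1 FPKM makes changes of scarce transcripts look smaller than they are. Libraries of the same group differed most in AbfA at 2 h (replicate 1) and BglC at 2 h (replicates 1 and 2), where the root mean square deviation from the group mean over all genes was 0.410, 0.381 and 0.324 on the log2 scale, against 0.154 to 0.303 in the other libraries. Results at 2 h in these strains are given without these libraries where leaving one out changed a call or a direction.

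The 3 genes differed widely in level. Per length, ipnA was the most abundant, with a median of 11.4 FPKM and a range from 3.45 to 97.9 over the 24 libraries. The median of aatA was 5.01 FPKM, with a range from 2.25 to 15.3. The median of acvA was 0.142 FPKM, with a range from 0.0359 to 0.938. The highest library was 28.4-fold above the lowest for ipnA, 26.1-fold for acvA and 6.80-fold for aatA.

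Because the length recovered for acvA was 11313 bases, against 996 for ipnA and 1074 for aatA, its low FPKM still rested on 7 to 188 reads per library, 991 in all. The counts were 57 to 1728 reads per library for ipnA and 32 to 284 for aatA. The lowest acvA value, 7 reads in AbfA at 2 h replicate 3, has a 95% Poisson interval of 0.0144 to 0.0739 FPKM, which covers counting error only. No library reached 1 FPKM for acvA, so 2 of the 3 genes passed the filter on low values. Tests of acvA therefore come from the same limma fit over all 10631 genes with no filter, and from limma-voom on the recovered reads (9542 genes with at least 10 reads in at least 3 libraries), which is not flattened by the added 1 FPKM.

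In the parental strain at 2 h, ipnA was an upper-middle gene: 68.4% of all genes had a lower mean. The share was 71.0% in BglC, but 38.3% in 1542 and 31.3% in AbfA at the same time. At 8 h it was 34.4% to 43.2% in all 4 strains. aatA stood above 24.8% to 40.9% of genes and acvA above 7.46% to 14.3%, so acvA was among the scarcest transcripts in every group.

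**Figure D1:**
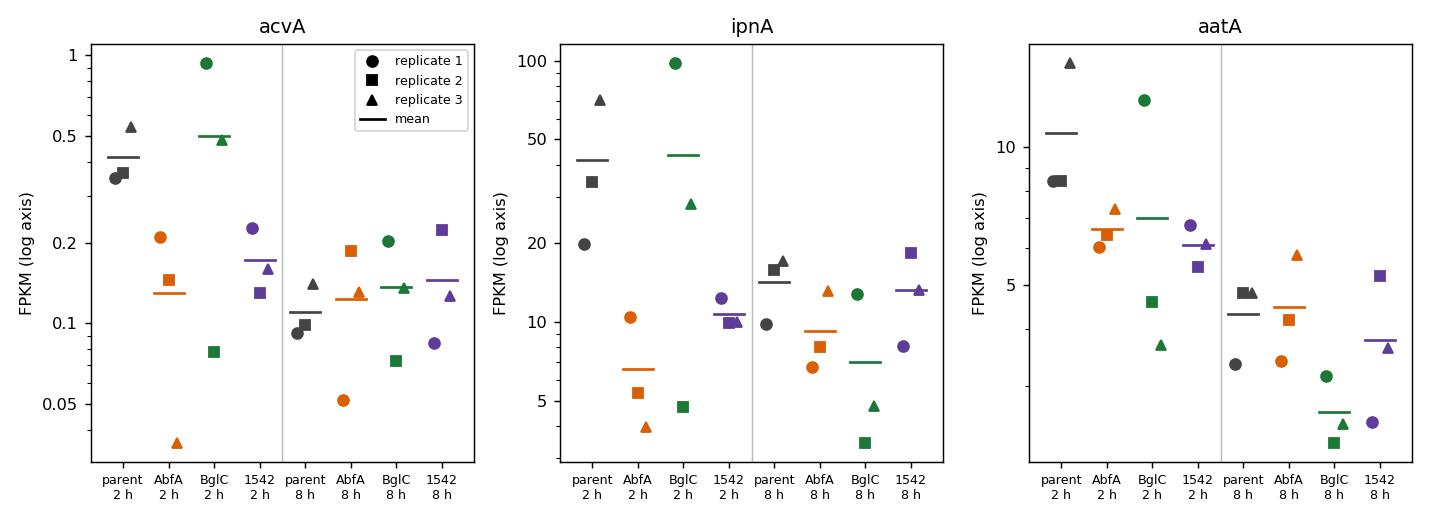
FPKM of acvA, ipnA and aatA on log axes in each of the 24 libraries, by strain and time; symbols give the replicate number and lines the mean of 3 libraries. The parental libraries at 2 h lie above all libraries of AbfA and 1542 at 2 h for each gene, and the BglC libraries at 2 h spread from 4.72 to 97.9 FPKM for ipnA.

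The comparison of each recombinant strain with the parental strain at 2 h asks whether making a foreign enzyme goes with a change of these genes early in maltose. For ipnA the parental libraries held 19.9, 34.2 and 70.8 FPKM (mean 41.6 ± 26.2, SD, n = 3). The AbfA libraries held 10.5, 5.36 and 3.96 FPKM (mean 6.60 ± 3.43). The 1542 libraries held 12.3, 9.91 and 9.99 FPKM (mean 10.7 ± 1.36). Every library of AbfA and of 1542 was below the lowest parental library. The BglC libraries held 97.9, 4.72 and 28.2 FPKM (mean 43.6 ± 48.5). This strain thus contained the highest ipnA value of the study and a value, 4.72 FPKM, below all parental libraries.

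ipnA fell in AbfA at 2 h by the limma test, with a log2 change of −2.40 ± 0.69 (adjusted p = 0.0128) and a ratio of means of 0.158. In this comparison 13.5% of the 9201 genes tested were called lower. The call was also made on recovered reads (−2.48 ± 0.84, limma-voom adjusted p = 0.0317, with 12.9% of genes called lower), but it ended without parental replicate 3 (−1.93, limma adjusted p = 0.0730) and without AbfA replicate 3 (−2.14, adjusted p = 0.0554). In 1542 the log2 change of ipnA was −1.68 ± 0.69, which missed the threshold (limma adjusted p = 0.0590; 16.1% of genes were called lower). It passed in a fit of only the 6 libraries compared (adjusted p = 0.0171), after scaling between libraries (−1.74, adjusted p = 0.0491) and without parental replicate 1 (−2.10, adjusted p = 0.0349). Without AbfA replicate 1 the AbfA value was −2.74 (adjusted p = 0.00897). In BglC the value of ipnA was −0.56 ± 0.69 (limma adjusted p = 0.580), with 15.7% of genes called lower. It was −1.54 without BglC replicate 1 (adjusted p = 0.0566) and 0.52 without BglC replicate 2 (adjusted p = 0.573), so its direction differed with the library left out and neither passed.

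For aatA at 2 h, the parental libraries held 8.45, 8.44 and 15.3 FPKM (mean 10.7 ± 3.96). The AbfA libraries held 6.05, 6.43 and 7.34 FPKM (mean 6.61 ± 0.663), and the 1542 libraries 6.76, 5.47 and 6.13 FPKM (mean 6.12 ± 0.645). These 2 groups lay wholly below the parental libraries, while the BglC libraries, at 12.7, 4.58 and 3.69 FPKM (mean 6.995 ± 4.97), overlapped them. The log2 changes were −0.58, −0.67 and −0.67 in AbfA, BglC and 1542 (SE 0.31 in each), and none passed the limma test (adjusted p = 0.153, 0.117 and 0.0894). Without BglC replicate 1 the BglC value was −1.15 and passed (adjusted p = 0.00265).

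For acvA at 2 h, the parental libraries held 0.348, 0.363 and 0.542 FPKM (55, 62 and 106 reads). The AbfA libraries held 0.211, 0.145 and 0.0359 FPKM (77, 23 and 7 reads), and the 1542 libraries 0.227, 0.130 and 0.160 FPKM (41, 18 and 22 reads). Again both groups lay wholly below the parental one. The BglC libraries held 0.938, 0.0782 and 0.483 FPKM (188, 16 and 91 reads) and overlapped it. On recovered reads the log2 change was −1.83 ± 0.74 in AbfA (limma-voom adjusted p = 0.0687), −1.26 ± 0.74 in 1542 (adjusted p = 0.193) and −0.34 ± 0.60 in BglC (adjusted p = 0.715), and none passed, where 12.9%, 14.7% and 13.9% of the 9542 genes were called lower. On log2(FPKM + 1) with no filter the values were −0.33, −0.27 and 0.04 (SE 0.13; limma adjusted p = 0.0740, 0.126 and 0.857). The value of 1542 passed in a fit of only the 6 libraries compared (adjusted p = 0.0454). The BglC value was −0.16 without replicate 1 (adjusted p = 0.270) and 0.26 without replicate 2 (adjusted p = 0.101).

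Thus at 2 h all 3 genes lay wholly below the parental libraries in AbfA, where 18.5% of the 9542 genes with recovered reads did so, and in 1542, where 22.8% did. In BglC none of the 3 did, against 21.7% of genes. The 3 comparisons share the same 3 parental libraries, so they are not independent of each other. Among the 3 recombinant strains at 2 h, limma's F-test gave an adjusted p of 0.0804 for ipnA, 0.951 for aatA and 0.0549 for acvA (no filter), where 50.6% of tested genes passed (44.6% with no filter). The F-test passed without BglC replicate 2, for ipnA with an adjusted p of 0.00113 and for acvA with 0.000375. For acvA it also passed without AbfA replicate 1 (adjusted p = 0.0487) and after scaling between libraries (adjusted p = 0.0377).

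At 8 h the ratio of the mean ipnA level to the parental mean was 0.652 in AbfA, 0.494 in BglC and 0.932 in 1542. The ipnA libraries held 9.77, 15.8 and 17.0 FPKM in the parental strain (mean 14.2 ± 3.88) and 6.69, 8.02 and 13.1 in AbfA (mean 9.26 ± 3.36). They held 12.8, 3.45 and 4.78 FPKM in BglC (mean 7.01 ± 5.06) and 8.12, 18.3 and 13.3 in 1542 (mean 13.2 ± 5.09). All 3 recombinant groups overlapped the parental one, while 27.7%, 30.6% and 25.1% of genes lay wholly lower in AbfA, BglC and 1542. The log2 changes from it were −0.58, −1.07 and −0.13 (SE 0.69), and none passed the limma test (adjusted p = 0.555, 0.256 and 0.922), where 16.6%, 20.9% and 12.7% of genes were called lower.

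The aatA libraries at 8 h held 3.34, 4.79 and 4.80 FPKM in the parental strain (mean 4.31 ± 0.838) and 3.41, 4.17 and 5.82 in AbfA (mean 4.47 ± 1.23). They held 3.15, 2.25 and 2.48 FPKM in BglC (mean 2.63 ± 0.465) and 2.49, 5.22 and 3.64 in 1542 (mean 3.78 ± 1.37). Only the BglC group lay wholly below the parental one, in a comparison where 30.6% of genes did so. Its log2 change was −0.55 ± 0.31 and did not pass (limma adjusted p = 0.193), nor did those of AbfA (0.03, adjusted p = 0.953) and 1542 (−0.18, adjusted p = 0.733).

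acvA at 8 h had means of 0.110 ± 0.0259 FPKM in the parental strain, 0.123 ± 0.0673 in AbfA, 0.137 ± 0.0655 in BglC and 0.145 ± 0.0710 in 1542. The groups overlapped throughout, with single libraries from 0.0520 to 0.223 FPKM. The limma-voom changes from the parental strain were −0.08 ± 0.95, 0.22 ± 0.85 and 0.26 ± 0.86 (adjusted p = 0.960, 0.872 and 0.864). With SEs this wide, small differences in acvA were not detectable at this depth.

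**Figure D2:**
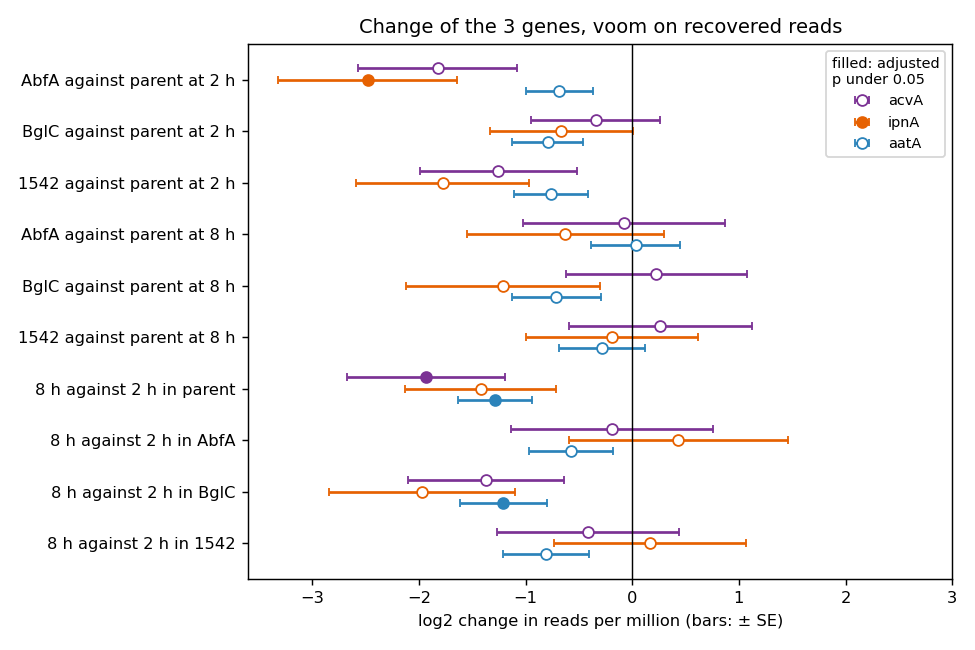
Log2 change ± SE in recovered reads, scaled to the library total, for acvA, ipnA and aatA in the 10 comparisons, from limma-voom on recovered reads; filled points have an adjusted p under 0.05. The 4 filled points are ipnA in AbfA against the parental strain at 2 h (−2.48), acvA and aatA at 8 h against 2 h in the parental strain (−1.93 and −1.29), and aatA at 8 h against 2 h in BglC (−1.21).

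Comparing 8 h with 2 h within a strain asks how the genes moved with time in maltose. In the parental strain all 3 genes were wholly lower at 8 h than at 2 h, where 21% of the 9542 genes with recovered reads were. The ratio of means was 0.263 for acvA, 0.341 for ipnA and 0.402 for aatA. aatA fell by 1.11 ± 0.31 on the log2 scale (limma adjusted p = 0.00571), where 16.8% of genes were called lower, and this call was made without each of the 6 libraries in turn (−1.24 to −0.84). acvA fell on recovered reads (−1.93 ± 0.74, limma-voom adjusted p = 0.0378, with 16.8% of genes called lower) and on log2(FPKM + 1) with no filter (−0.35 ± 0.13, limma adjusted p = 0.0405, with 42.5% of genes called in either direction). The latter call ended without any 1 of the 6 libraries (adjusted p from 0.0519 to 0.144), and on recovered reads it was made only without parental 2 h replicate 1 (adjusted p = 0.0458). The change of ipnA was −1.34 ± 0.69 and missed the threshold (limma adjusted p = 0.113), but passed in a fit of only the 6 parental libraries (adjusted p = 0.0318).

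In BglC, ipnA fell by 1.85 ± 0.69 (limma adjusted p = 0.0454) and aatA by 0.98 ± 0.31 (adjusted p = 0.0196) between 2 h and 8 h, where 10.6% of genes were called lower. The aatA libraries did not overlap between the times (15% of genes were wholly lower), while those of ipnA and acvA did. Both calls rested on BglC 2 h replicate 1. Without it the change of ipnA was −0.87 (adjusted p = 0.286) and that of aatA −0.50 (adjusted p = 0.134). The ipnA call also ended on recovered reads (−1.97 ± 0.87, limma-voom adjusted p = 0.0925, with 10.5% of genes called lower), with no filter (adjusted p = 0.0565), in a fit of only the BglC libraries (adjusted p = 0.210; 0.0126 when these were paired by replicate number), and without 2 h replicate 3 (adjusted p = 0.111), 8 h replicate 2 (adjusted p = 0.159) or 8 h replicate 3 (adjusted p = 0.115). The aatA call ended in the fit of only the BglC libraries (adjusted p = 0.115; 0.0253 when paired) and without 8 h replicate 2 (adjusted p = 0.0655) or 8 h replicate 3 (adjusted p = 0.0518). For acvA the change with no filter was −0.36 ± 0.13 (limma adjusted p = 0.0503), and −0.58 without 2 h replicate 2 (adjusted p = 0.000638).

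AbfA and 1542 started from lower levels at 2 h, and none of the 3 genes passed the time comparison in them, where 8.14% and 9.18% of genes were called lower. In AbfA the log2 change of ipnA was 0.48 ± 0.69 (limma adjusted p = 0.667) and that of aatA −0.50 ± 0.31 (adjusted p = 0.265). In 1542 the changes were 0.22 ± 0.69 (adjusted p = 0.859) and −0.61 ± 0.31 (adjusted p = 0.179). aatA was nevertheless wholly lower at 8 h in both strains, with ratios of means of 0.676 and 0.618, where 14.1% and 21% of genes were wholly lower. The ipnA and acvA libraries overlapped between the times in both strains.

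Whether a strain's difference from the parental strain changed between the times was tested as an interaction. For ipnA it was 1.82 in AbfA, −0.51 in BglC and 1.56 in 1542 (SE 0.97; limma adjusted p = 0.211, 0.809 and 0.273). For aatA it was 0.61, 0.13 and 0.50 (adjusted p = 0.360, 0.901 and 0.453). For acvA with no filter it was 0.34, −0.01 and 0.32 (adjusted p = 0.246, 0.989 and 0.273). None passed, although 16.7%, 10.1% and 20.4% of all tested genes did, so the larger ipnA differences of AbfA and 1542 at 2 h than at 8 h were not shown to differ from those at 8 h. For BglC the ipnA difference was −0.56 at 2 h and −1.07 at 8 h. The acvA interaction of 1542 passed in a fit of only the 12 libraries compared (0.32, adjusted p = 0.0470).

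The proportions of the 3 transcripts also varied. ipnA was 35.3 to 160 times as abundant as acvA per length, with a median of 79.2. The ratio of ipnA to aatA ran from 0.539 to 7.70, with a median of 2.30. At 2 h it was 2.35 to 4.62 in the parental strain, 0.539 to 1.73 in AbfA and 1.63 to 1.82 in 1542, with no overlap between the parental libraries and either strain. In BglC it was 1.03 to 7.70. At 8 h it was 2.92 to 3.55 in the parental strain, 1.92 to 2.25 in AbfA, 1.53 to 4.07 in BglC and 3.25 to 3.65 in 1542. aatA thus exceeded ipnA in 2 AbfA libraries, those of 2 h replicates 2 and 3, where ipnA was at 5.36 and 3.96 FPKM.

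Between replicates the 3 genes varied more than the median gene in most groups, but not in all. In BglC at 2 h the SD of log2 FPKM was 2.20 for ipnA, 1.86 for acvA and 0.953 for aatA, where the median over 9231 genes was 0.252. These SDs exceeded those of 99.3%, 98.98% and 94.9% of genes. In the parental strain at 2 h the SD of ipnA was 0.919, above 96.2% of genes. In 1542 at 2 h it was 0.178, above 51.1% of genes, so the replicates of that group were about as tight as those of a typical gene. The SD of aatA was below the median over all genes in AbfA at 2 h (0.143 beside 0.238) and in 1542 at 2 h (0.153 beside 0.174).

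Within groups ipnA moved with acvA and with aatA, while acvA with aatA passed by rank correlation only. Deviations of log2 FPKM from the group mean were correlated over the 24 libraries, with p from 100000 permutations within groups (two-sided) and adjusted over the 3 pairs. ipnA and acvA had Pearson's r = 0.854 (permutation p = 8e-05, adjusted 0.00024) and Spearman's rho = 0.790 (permutation p = 0.00017, adjusted 0.00051). Without the 2 libraries farthest in ipnA, BglC 2 h replicates 1 and 2, r was 0.728, and without all 3 BglC libraries of 2 h it was 0.726 (n = 21). By this r, acvA ranked 3 of 9230 genes in likeness to ipnA.

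ipnA and aatA had r = 0.714 (permutation p = 0.0224, adjusted 0.0336) and rho = 0.691 (permutation p = 0.00494, adjusted 0.00741). The r was 0.604 without the same 2 libraries, 0.735 without BglC at 2 h, and aatA ranked 291 of 9230 genes. acvA and aatA had r = 0.516, which did not pass (permutation p = 0.136, adjusted 0.136), and rho = 0.521 (permutation p = 0.0366, adjusted 0.0366). Without BglC 2 h replicate 2 and AbfA 2 h replicate 3 their r was 0.614, and without BglC at 2 h 0.458. By r over the 24 libraries, aatA ranked 590 of 9230 genes in likeness to acvA. The acvA values rested on few reads in several libraries, and how far that lowers its correlations was not tested.

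**Figure D3:**
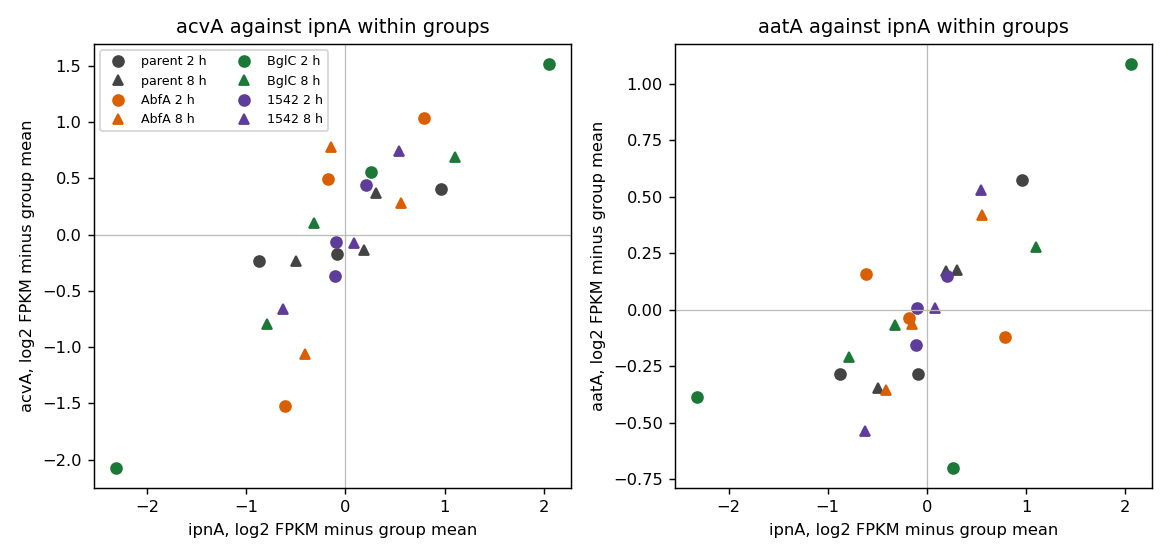
Deviation from the group mean in log2 FPKM of acvA (left) and aatA (right) against that of ipnA, 1 point per library, coloured by strain, with circles at 2 h and triangles at 8 h. BglC 2 h replicates 1 and 2 lie at the ends of the ipnA axis; r was 0.854 for acvA and 0.714 for aatA over the 24 libraries.

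BglC replicate 1 held the highest value of its group for all 3 genes at both times. Markers of conidiation, the formation of asexual spores, were high in the same libraries. The summed level of the 8 markers found (brlA, abaA, wetA, rodA, dewA, ivoA, ivoB and yA) was 2672, 133 and 424 FPKM in BglC replicates 1, 2 and 3 at 2 h, and 1509, 222 and 83.6 FPKM at 8 h. In the parental strain at 2 h the sums were 2015, 1485 and 4135 FPKM, and replicate 3, the highest, also held the highest ipnA. In AbfA at 8 h the sums of replicates 1, 2 and 3 (1957, 3249 and 3763 FPKM) had the order of ipnA (6.69, 8.02 and 13.1 FPKM). In 1542 at 8 h the library with the highest sum (794 FPKM) held the lowest ipnA of its group (8.12 FPKM). So did that of the parental strain at 8 h (9.77 FPKM of ipnA), but its sum of 266 FPKM was close to the 265 of replicate 3. In AbfA and 1542 at 2 h the library with the highest sum held neither the highest nor the lowest ipnA. The hydrophobin gene rodA held 2091, 24.5 and 235 FPKM in BglC at 2 h. This was most of the sum in replicates 1 and 3 but not in replicate 2. brlA, which encodes the central activator of conidiation, held 203, 46.0 and 75.5 FPKM there, so no defining marker was at 0 in these libraries.

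The sums ran from 1308 to 1632 FPKM in AbfA and from 807 to 1712 in 1542 at 2 h. At 8 h they were 230 to 266 FPKM in the parental strain, 1957 to 3763 in AbfA and 591 to 794 in 1542. In AbfA at 8 h, 6 of the 8 markers rose against the parental strain, where 27.9% of all genes were called in either direction, for example ivoB (5.99 ± 0.42) and brlA (1.96 ± 0.44), while ipnA and aatA were not called. The calls of rodA, wetA and yA ended in 5, 2 and 1 of the 6 fits without 1 library (limma adjusted p up to 0.0684, 0.0611 and 0.0617). The part of sporulation in the values of the penicillin genes was not tested.

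By Pearson's r of log2(FPKM + 1) over all 24 libraries, which share strain, time and depth, no gene that passed the filter was more like acvA than ipnA (r = 0.888). The next were AN0012 (0.837), AN0472 (0.834), AN7349 (0.833), AN3447 (0.828) and AN0245 (0.817). Most like ipnA, apart from acvA, were AN11041 (0.846), AN5215 (0.799), AN1408 (0.796), AN8863 or nap1 (0.782) and AN9407 (0.778). Most like aatA were AN9090 (0.866), AN9404 (0.861), AN0299 (0.857), AN10130 (0.856) and AN5763 (0.848), and the r of aatA with ipnA was 0.672, which 361 genes exceeded. AN7349 showed the pattern of acvA at a higher level, with means at 2 h of 24.6 FPKM in the parental strain, 28.8 in BglC, 2.59 in AbfA and 2.29 in 1542, and 0.838 to 3.63 at 8 h. Its BglC libraries at 2 h held 60.3, 10.1 and 16.1 FPKM, with replicate 1 again the highest and replicate 2 the lowest.

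The gene order of ASM1142v1 gave 10 neighbours on the aatA side and 7 on the acvA side, where the sequence in the table ends. Of these 17 genes, 12 were measured and 8 tested, and 4 of the 8 were called in none of the 6 comparisons with the parental strain, as were 24.4% of all 9201 genes tested. On the aatA side AN2624 stayed at or below 2.08 FPKM and was not tested, AN11354 was not analysed here, and AN2626 held 27.4 to 33.1 FPKM in all 8 groups with no call.

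AN2625, between AN11354 and AN2626, was called lower in 4 of the 6 comparisons, but both calls at 8 h and that in AbfA at 2 h ended without some single libraries (highest adjusted p = 0.158 in BglC, 0.107 in 1542 and 0.0598 in AbfA). Its means at 2 h were 1.39 FPKM in the parental strain, 0.512 in AbfA and 0.480 in 1542, with log2 changes of −0.67 and −0.69 (SE 0.20), of which the AbfA call ended in a fit of only the 6 libraries compared (adjusted p = 0.0503). On the acvA side AN2620 was not analysed here and AN2619 was at or near 0. AN2618 fell in 1542 at 2 h (−1.05 ± 0.27), with means of 0.950 FPKM there and 3.31 in the parental strain, a call that ended in a fit of only the 6 libraries compared (adjusted p = 0.0557). Its means at 2 h were 1.72 FPKM in AbfA and 2.41 in BglC, which were not called. Between 2 h and 8 h AN2618 fell in the parental strain (−1.42 ± 0.27, limma adjusted p = 0.00026) and in BglC (−1.01 ± 0.27, adjusted p = 0.00777), and both calls were made without each of the 6 libraries in turn. AN2628 and AN2617 were each called higher once, in AbfA (1.01 ± 0.18) and BglC (0.75 ± 0.26) at 2 h. The AN2617 call ended in 4 of the 6 fits without 1 library.

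**Figure D4:**
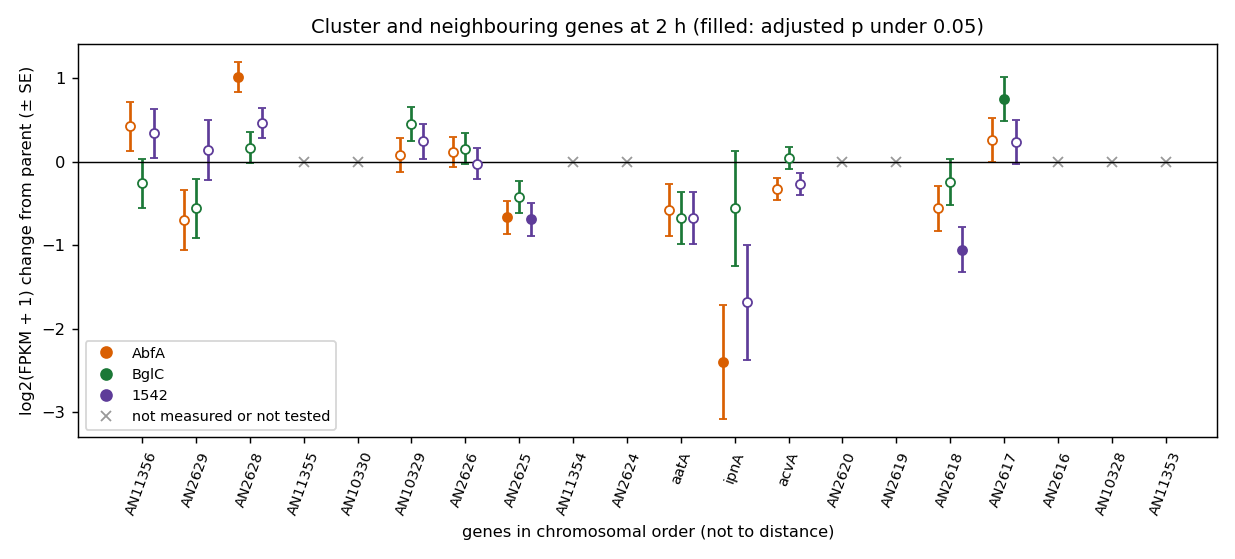
Change from the parental strain at 2 h ± SE on log2(FPKM + 1) for aatA, ipnA, acvA and their neighbours in chromosomal order, for AbfA, BglC and 1542; filled points have an adjusted p under 0.05, crosses mark genes not measured or not tested, and acvA comes from the fit with no filter. ipnA in AbfA (−2.40) is the filled point farthest from 0, and the tested neighbours lie between −1.05 and 1.01.

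Of 26 symbols of regulators reported for penicillin genes, 14 were found in the names table, and all 14 were tested. Against the parental strain at 2 h, 2 were called higher and 3 lower in AbfA, none higher and 4 lower in BglC, and 2 each way in 1542, where 31.9%, 23.2% and 38.2% of all genes were called in either direction. At 8 h the counts were 0 and 2, 1 and 2, and 1 and 0, against 27.9%, 28% and 18.2% of genes. The medians over the 14 were 0.04, −0.23 and 0.07 at 2 h, beside 0.04, −0.10 and 0.05 over all genes.

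laeA encodes a methyltransferase-like regulator of secondary metabolite clusters. At 2 h its mean was 76.7 ± 5.78 FPKM in the parental strain, and it fell to 54.4 ± 5.88 in AbfA (−0.49 ± 0.14) and 51.2 ± 5.13 in 1542 (−0.58 ± 0.14). At 8 h the parental mean was 39.5 ± 4.95, and laeA rose in BglC to 71.0 ± 3.37 (0.84 ± 0.14) and in 1542 to 60.2 ± 12.6 (0.58 ± 0.14), while ipnA was not called in either. Between the times laeA fell in the parental strain (−0.94 ± 0.14), as acvA and aatA did. In that comparison 4 of the 14 regulators were called lower and 6 higher, beside 1550 and 2890 of the 9201 genes tested. In BglC, where ipnA and aatA were called lower with time, the laeA mean was 62.9 FPKM at 2 h and 71.0 at 8 h. The AbfA call ended without parental replicate 3 (adjusted p = 0.0605), and the 1542 call at 8 h in a fit of only the 6 libraries compared (adjusted p = 0.0524).

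areA encodes the activator of nitrogen use. It fell in AbfA at 2 h, from 120.5 ± 30.3 to 61.8 ± 14.1 FPKM (−0.95 ± 0.18), and in BglC (−0.83 ± 0.18). pacC, which encodes the regulator of ambient pH response known to activate ipnA under alkaline conditions, rose in AbfA (0.51 ± 0.17) and 1542 (0.63 ± 0.17) at 2 h, from a parental mean of 81.7 ± 8.40 FPKM. hapX, a regulator of iron use that binds with the HAP complex, rose in 1542 at 2 h from 12.4 ± 0.622 to 26.0 ± 7.06 FPKM (0.98 ± 0.20). creA, the gene of the carbon catabolite repressor, fell in AbfA (−0.42 ± 0.13) and 1542 (−0.45 ± 0.13) at 2 h from 955 ± 47.7 FPKM.

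hapB, a subunit of the HAP complex, rose in AbfA at 2 h (0.44 ± 0.14). The velvet gene veA fell in BglC at both times (−0.47 ± 0.15 each) and in AbfA at 8 h (−0.48 ± 0.15). gcnE, of a histone acetyltransferase, fell in the same 3 comparisons (−0.44, −0.56 and −0.39, SE 0.13). The veA calls in BglC ended after scaling between libraries (adjusted p = 0.0625 at 2 h and 0.109 at 8 h) and that in AbfA at 8 h without parental replicate 3 (adjusted p = 0.103). In BglC at 2 h the calls of veA and gcnE each ended in 4 of the 6 fits without 1 library (limma adjusted p up to 0.0943 and 0.0814). The gcnE calls in BglC at 2 h and AbfA at 8 h ended in a fit of only the 6 libraries compared (adjusted p = 0.0859 and 0.0873). The AbfA calls of pacC, creA and hapB ended in such a fit too (adjusted p = 0.0920, 0.0727 and 0.155), and the creA call in 1542 ended without 1542 replicate 3 (adjusted p = 0.0594). RNA levels of regulators do not give their activity, which for pacC, creA and areA is known to be set largely after transcription.

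**Figure D5:**
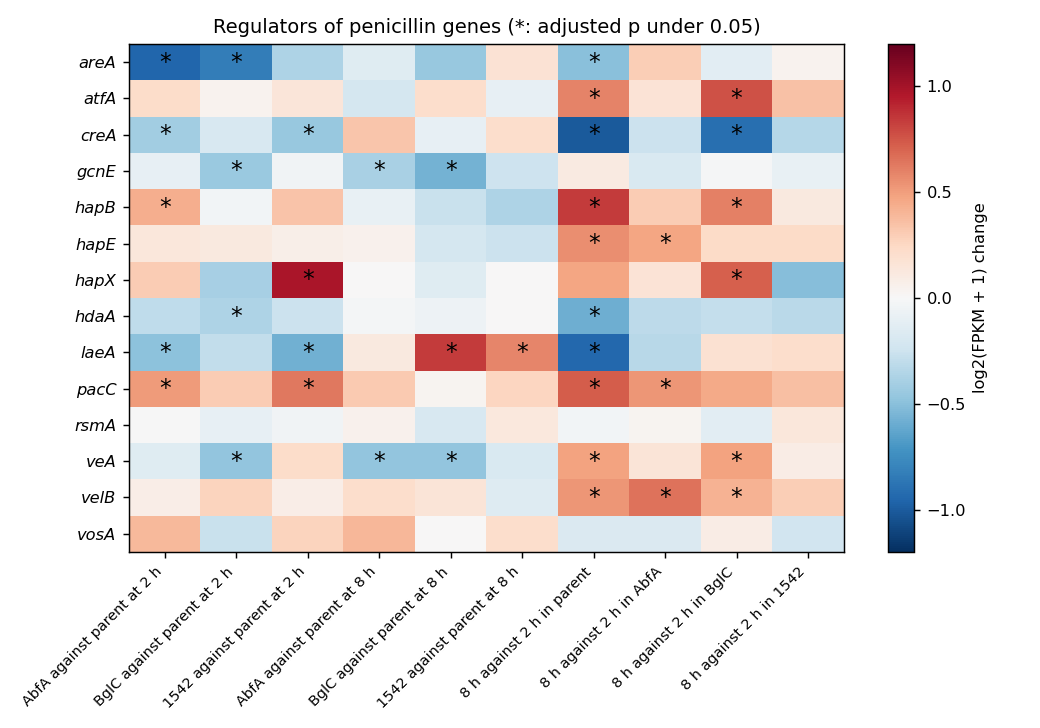
Log2(FPKM + 1) change of 14 regulator genes (rows) in 10 comparisons (columns), with red for higher and blue for lower and a star for an adjusted p under 0.05. laeA is starred and blue in AbfA and 1542 at 2 h (−0.49 and −0.58), and starred and red in BglC and 1542 at 8 h (0.84 and 0.58).

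Few genes of precursor supply could be matched by symbol, so the lists below are partial. For lysine synthesis, the pathway of fungi that yields alpha-aminoadipate, 5 of 15 symbols were found. At 2 h, 1 was higher and 1 lower in AbfA, 3 were lower in BglC and 2 were lower in 1542, where 13.5%, 15.7% and 16.1% of all genes were called lower. hcsA, of homocitrate synthase, the first enzyme of the pathway, fell in 1542 from 404 ± 74.9 to 205 ± 42.4 FPKM (−0.98 ± 0.18), and lysF, of homoaconitase, from 42.9 ± 8.56 to 25.8 ± 2.29 (−0.70 ± 0.15). In BglC lys9 (−0.72 ± 0.16) and lys1 (−0.44 ± 0.10), named as the yeast genes of the last, saccharopine steps, fell at 2 h. The lys9 and lys1 calls ended in a fit of only the 6 libraries compared (adjusted p = 0.0796 and 0.0778). The 2 h calls of lys1 and hcsA in AbfA and of hcsA in BglC ended without some single library (limma adjusted p up to 0.0754, 0.0542 and 0.118). At 8 h, 1, 2 and 1 of the 5 were lower in AbfA, BglC and 1542, beside 16.6%, 20.9% and 12.7% of all genes, and none was higher. Each of these 8 h calls ended without some single library. The adjusted p rose to 0.107 for lysF in AbfA, 0.238 for lys1 and 0.062 for lys9 in BglC, and 0.113 for hcsA in 1542.

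Of 20 symbols for sulfur and cysteine, 2 were found. metG, which acts in the exchange between methionine and cysteine, fell in AbfA, BglC and 1542 at 2 h (−0.73, −0.79 and −0.71, SE 0.14), from 54.3 ± 8.16 FPKM to between 30.9 and 32.5. sC, of ATP sulfurylase in sulfate assimilation, fell in 5 of the 6 comparisons, by 0.76 ± 0.18 in AbfA at 8 h, but its calls in BglC and 1542 at 8 h ended after scaling between libraries (adjusted p = 0.0779 and 0.114) and that in AbfA at 2 h in a fit of only the 6 libraries compared (adjusted p = 0.0929). These comparisons share the parental libraries. Of 14 symbols for valine, 2 were found, both named after the dihydroxyacid dehydratase of yeast. ilv3B fell in BglC at 2 h (−1.09 ± 0.22) and rose in AbfA (0.64 ± 0.22; adjusted p = 0.0931 in a fit of only the 6 libraries compared), and ilv3 rose in BglC at 8 h (0.83 ± 0.22; adjusted p = 0.0575 without parental replicate 1). No gene of acvA activation was matched (0 of 5 symbols).

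Of 28 peroxisome symbols 9 were found, which bear on the compartment of the aatA enzyme. In 1542 at 2 h 4 rose and none fell, where 38.2% of all genes were called in either direction, with a median of 0.33 over the 9 beside 0.05 over all genes. The call of 1 of the 4 ended in 4 of the 6 fits without 1 library (adjusted p up to 0.0642). They encode peroxins, proteins that build peroxisomes and import their enzymes. Among them pex14 rose by 0.64 ± 0.13 from 18.6 ± 0.704 FPKM, and pex20 by 0.60 ± 0.16 from 36.6 ± 4.41. aatA in the same comparison was −0.67 ± 0.31 and not called. In AbfA 2 rose, where 31.9% of all genes were called in either direction. Both calls, of pex13 and pex14, ended in 4 of the 6 fits without 1 library (limma adjusted p up to 0.158 and 0.105). In BglC, where 23.2% of all genes were called, pex13 rose (0.94 ± 0.17) and pex4 fell (−0.52 ± 0.17). The pex4 call ended in a fit of only the 6 libraries compared (adjusted p = 0.0924). It also ended in 5 of the 6 fits without 1 library (limma adjusted p up to 0.183). Phenylacetate can serve as a side chain of penicillin, and 3 of 5 symbols of its breakdown were found, without phacA and phacB. hmgA, fahA and maiA encode the dioxygenase, hydrolase and isomerase that open and split homogentisate, so the values cover these steps only. All rose in AbfA and 1542 at 2 h, with changes from 1.78 to 2.77, where 31.9% and 38.2% of all genes were called in either direction. In BglC hmgA fell (−1.12 ± 0.37), a call that ended in a fit of only the 6 libraries compared (limma adjusted p = 0.0760). It also ended in 5 of the 6 fits without 1 library (adjusted p up to 0.173).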

How the data were processed

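The authors deposited FPKM per gene for 24 libraries, and the table was used as deposited. Libraries were made with a stranded mRNA kit from RNA of mycelium, per the labels' protocols. Tools named in the submitters' processing notes, without saying what each did, are HTSeq 0.6.0, SAMtools 0.1.18, DESeq2, FastQC and bcl2fastq 1.8.4. How reads were aligned, to which build and annotation, and whether strand was used is not given in the sources used here, so reads of overlapping or antisense genes may not be separated. The members and gene lists were chosen with earlier results of these data known.

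Whole reads were recovered with a tolerance of 0.001, which all 10631 genes met. A gene with no fitting length would get 0 reads and also meet it, so this share does not measure recovery. The summed reads ran from 7140121 to 32309717 per library. They differed from the library totals given by the steps by at most 2. The scale of the totals was set by requiring that lengths in a subset of genes be multiples of 3. Of 9275 genes with at least 200 reads, 9252 gave such lengths. Because of that requirement, this is no independent sign that they are coding lengths. The recovery of reads and a single contrast of the main fit (AbfA against the parental strain at 2 h) were run on simulated data. The simulated reads for the fit had the same spread setting in every gene, below the widest spread of ipnA. Limma-voom, the F-test, the interactions and the paired fit were not simulated. The two-sided main test was limma (version 3.58.1, R 4.3.3) applied to log2(FPKM + 1), with empirical Bayes trend, for 9201 genes with at least 1 FPKM in at least 3 libraries. Alternatives were a pseudocount of 0.1, no filter, median-of-ratios scaling, only the libraries compared, no trend, a replicate block, limma-voom on recovered reads, and leaving out each library. Poisson intervals are exact (scipy 1.17.1).

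Same-numbered libraries deviated together over all genes only between the times in BglC (r = 0.589, 0.154 and 0.327), where the numbers were taken to pair the samples. This pairing was inferred from these same data. In the other comparisons they share only a number.

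Named genes were the 3 members, up to 4 called members of each list with the largest change, further called regulators and other list genes singled out after their values were seen, the 3 nearest neighbours on each side and those called at least 2 times, and the 5 most like genes of each member. AN2628 and the other neighbours called once were named after their values were seen. Of 122 list symbols, 43 matched the ASM1142v1 names, which gave 778 of 9938 measured genes a symbol. Some genes of the peroxisome list are not reported here.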

Additional observations from a re-analysis of the deposited data

Results flagged for a closer look

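The 3 penicillin genes gave no interaction that passed in the main fit. Among the listed genes, the difference of a strain from the parental strain changed between 2 h and 8 h in 18 of 129 tests by limma's interaction test (43 genes in 3 strains). That is 14% of the tests, beside 16.7%, 10.1% and 20.4% of all genes in AbfA, BglC and 1542. Each is given here as the log2 change at 8 h minus that at 2 h. For regulators it was 0.61, 1.13 and 1.16 for laeA in AbfA, BglC and 1542, 0.75 and 0.66 for creA in AbfA and 1542, 0.80 for areA in AbfA, and −0.72 for hapB and −0.98 for hapX in 1542. For the peroxisome it was −0.54 for pex14 in 1542, and for the homogentisate genes of the phenylacetate list −1.91 for fahA in 1542. For conidiation markers in AbfA it was 2.47 for brlA, 1.02 for abaA, 2.10 for ivoA, 6.62 for ivoB and 1.52 for yA. In 1542 it was 2.07 for brlA and 6.96 for ivoB, and in BglC it was 5.04 for ivoB. The adjusted p ran from 3.19e-07 (ivoB in 1542) to 0.0402 (laeA in AbfA). Of the 18 calls, 8 ended without some single library of the 12 compared. These were laeA in AbfA and pex14 in 1542 (9 of 12 fits each), yA in AbfA (8), abaA and areA in AbfA and fahA in 1542 (6 each), brlA in 1542 (4) and hapX in 1542 (2).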

How the results depend on the processing

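No value of the 3 genes that passed its test changed sign under any setting. Of the values of the 3 genes under settings that kept all libraries compared, 292 stayed on their side of the threshold, 7 passed newly and 4 no longer passed. In a fit of only the libraries compared, ipnA passed in 1542 at 2 h (−1.68, limma adjusted p = 0.0171) and between the times in the parental strain (−1.34, adjusted p = 0.0318), acvA passed in 1542 at 2 h (−0.27) and in its change between the times (0.32), and the BglC time changes of ipnA (−1.85) and aatA (−0.98) no longer passed. The counts of all genes called then became 1319 in AbfA and 637 in BglC at 2 h (2939 and 2135 in the main fit), 868 and 1778 between the times in AbfA and BglC (1755 and 2974), and 3009 among the recombinant strains at 2 h (4652); such a fit has fewer samples. With median-of-ratios scaling ipnA passed in 1542 at 2 h (−1.74), acvA passed between the times in BglC (−0.38) and among the strains at 2 h (adjusted p = 0.0377). The ipnA change between the times in BglC no longer passed with no filter (−1.85) or on recovered reads (−1.97).

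Leaving out single libraries gave ranges of −2.82 to −1.93 for ipnA in AbfA at 2 h, −1.54 to 0.52 in BglC at 2 h, −2.10 to −1.21 in 1542 at 2 h, and −2.92 to −0.87 between the times in BglC. For aatA the ranges were −1.15 to −0.37 in BglC at 2 h and −1.28 to −0.50 between the times in BglC. For acvA they were −0.39 to −0.29 between the times in the parental strain and −0.58 to −0.15 in BglC. The adjusted p of the F-test at 2 h ran from 0.00113 to 0.370 for ipnA and from 0.000375 to 0.428 for acvA. Counts of all genes called ran from 1747 to 3520 (AbfA at 2 h), 976 to 3064 (BglC at 2 h), 1363 to 2648 (AbfA at 8 h), 1558 to 2530 (BglC at 8 h), 957 to 1783 (1542 at 8 h), 994 to 1937 (between the times in AbfA), 737 to 1596 (in 1542) and 1228 to 2017 (change of the 1542 difference).

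Scaling moved the median of all genes by over 0.1 where it had been −0.14 (BglC at 8 h), 0.13 (time in the parental strain) and −0.15 (change of the 1542 difference). The split of higher and lower calls went from 690 and 1445 to 954 and 1005 in BglC at 2 h, from 652 and 1924 to 1055 and 1074 in BglC at 8 h, and from 499 and 1171 to 750 and 801 in 1542 at 8 h. With time it went from 2890 and 1550 to 2260 and 2219 in the parental strain, from 1996 and 978 to 1670 and 1416 in BglC, and from 1006 and 749 to 892 and 1006 in AbfA. For the change of a strain's difference it went from 535 and 1003 to 779 and 874 (AbfA), from 361 and 572 to 558 and 538 (BglC) and from 519 and 1359 to 962 and 969 (1542). The replicate block in the fit of all libraries changed no call of the 3 genes (ipnA between the times in BglC, −1.85, adjusted p = 0.0491). In the 6 BglC libraries the numbers were taken to pair the samples, on the evidence of these same data. There the block gave a limma adjusted p of 0.0126 for ipnA, 0.0253 for aatA and 0.127 for acvA with no filter. This alternative was added after the data were seen. Of 146 calls of other listed and neighbouring genes, 74 ended under some setting. The cause of these changes was not tested. With 3 libraries a group, the main fit gave ipnA the same SE of 0.69 in each comparison of a strain or a time. This SE pools the spread of all 8 groups. The SD of log2 FPKM of ipnA ran from 0.178 in 1542 at 2 h to 2.20 in BglC at 2 h. The pooled SE may therefore be too small for comparisons with BglC at 2 h and too large for those with 1542 at 2 h. Some ipnA changes larger than this SE also missed the threshold in the main fit, so 0.69 is not a limit of detection.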
